A study of Mus musculus with 8 samples.

Results

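The genes described here are 10 secreted antagonists and feedback targets of the Wnt pathway: the Dickkopf genes Dkk1, Dkk3 and Dkk4, the secreted Frizzled-related genes Sfrp1, Sfrp2, Sfrp5 and Frzb, the Wnt inhibitory factor Wif1, and the pathway targets Axin2 and Apcdd1. They were picked by gene name in the array annotation, and 10 of 10 were found, on 11 probes, among 34541 gene names on 55681 probes. RNA was read on 8 Agilent mouse expression arrays of a single colour. Sorted cells were derived from the mouse embryonic stem (ES) line K/l-EB5, male and of 129/Ola background, with green fluorescent protein read from Rax, a homeobox gene of the eye field and hypothalamus. These cells were turned towards neural fates in minimal medium, received 5 µM IWR-1-endo (the Wnt inhibitor, Wi) on day 3 and, 12 h later, either activin A at 10 ng/ml or the Hedgehog agonist SAG at 100 nM. RAX-positive and RAX-negative cells of both treatments were separated at 10 days. A control culture of the same day, called the Wi control here, was E14Tg2A, a second male ES line of 129/Ola background, with the inhibitor alone and no sort named in the labels. Cortex, diencephalon/hypothalamus and eye were taken whole from 3 Sv129s6 embryos of both sexes at E12.5 and had no inhibitor. The 5 culture arrays, called cultures here, count both sorted fractions of each treatment separately. All 5 thus carried the inhibitor and no culture without it was analysed here, and each sorted treatment rests on 1 reporter line.

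Canonical Wnt ligands bind Frizzled receptors with the co-receptors Lrp5 and Lrp6, which stabilizes beta-catenin and lets it act with TCF/LEF factors on target promoters. IWR-1-endo inhibits tankyrases and so stabilizes Axin proteins, which belong to the complex that marks beta-catenin for destruction. Dkk1 and Dkk4 bind the co-receptors, Sfrp proteins and Wif1 bind the ligands themselves, Axin2 is a target gene that feeds back on the destruction complex, and Apcdd1 is a membrane-bound antagonist and target. In the forebrain and eye, Wnt activity is high at dorsal and caudal sites and low where the anterior neural plate forms the eye field.

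Promoters of the members that had the most similar profiles over the 8 arrays are shown first. The later values of Dkk1 and Sfrp5, and of Axin2 (on its brighter probe) and Wif1, are read in pairs. RefSeq promoter sequences (GRCm38.p6) were read for 6 of the 10 genes. Dkk3, Dkk4, Sfrp1 and Apcdd1 are not among these member windows, which does not show that the reference lacks them. Each run below is the 250 bases upstream of the start site on the gene's own strand. The runs lie at chr19:30549497-30549746 (minus strand) for Dkk1, chr19:42202253-42202502 (minus) for Sfrp5, chr11:108920099-108920348 (plus) for Axin2 and chr10:121033754-121034003 (plus) for Wif1. Capitals mark the TCF/LEF motif searched, CTTTGAA or CTTTGAT or CTTTGTA or CTTTGTT, on both strands.
Dkk1: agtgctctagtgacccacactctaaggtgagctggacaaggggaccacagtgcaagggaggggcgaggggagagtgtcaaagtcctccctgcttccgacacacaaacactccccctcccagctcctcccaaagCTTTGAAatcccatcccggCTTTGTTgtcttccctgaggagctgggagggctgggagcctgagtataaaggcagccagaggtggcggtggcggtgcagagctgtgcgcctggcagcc
Sfrp5: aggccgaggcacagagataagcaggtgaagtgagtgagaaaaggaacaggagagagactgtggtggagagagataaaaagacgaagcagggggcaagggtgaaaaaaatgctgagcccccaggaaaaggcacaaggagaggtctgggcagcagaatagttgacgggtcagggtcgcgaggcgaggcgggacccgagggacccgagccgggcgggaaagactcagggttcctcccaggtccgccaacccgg
Axin2: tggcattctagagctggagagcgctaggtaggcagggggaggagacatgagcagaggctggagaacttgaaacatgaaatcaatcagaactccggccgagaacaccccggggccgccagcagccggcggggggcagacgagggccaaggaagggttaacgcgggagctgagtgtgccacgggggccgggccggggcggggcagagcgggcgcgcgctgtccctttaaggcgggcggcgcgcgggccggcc
Wif1: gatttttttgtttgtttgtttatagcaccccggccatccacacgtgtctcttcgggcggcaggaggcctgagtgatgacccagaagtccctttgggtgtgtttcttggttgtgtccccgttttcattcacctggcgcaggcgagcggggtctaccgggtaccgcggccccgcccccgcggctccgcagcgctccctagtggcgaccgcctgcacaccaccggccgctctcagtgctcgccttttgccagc
Dkk1 held 2 matches on its own strand, with their first bases 117 and 98 bases upstream of the start. The windows of Sfrp2, Sfrp5, Frzb, Wif1 and Axin2 held 0 matches. Thus 1 of the 6 member windows read (16.7%) held the motif, beside 14.8% of all 32851 promoter windows. A match of these letters is a description of the window only.

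Each group had 1 array with RNA pooled from 3 sets of experiments, so the spread between cultures or embryos was not measured. A level is the log2 of the processed signal minus the log2 of the 75th percentile of its array, and levels of different probes are not compared. Values of the sorted cells are given for RAX-negative and then RAX-positive cells of each treatment, unless stated otherwise. Between 59.5% and 79.3% of spots were well above background, and 0 spots were saturated. Rax itself had a level of 5.46 in RAX-positive and 2.31 in RAX-negative cells after activin, 5.49 and 3.09 after SAG, and -4.07 in the Wi control. The log2 of the summed levels of 7 pluripotency markers was 6.39 in RAX-negative cells after activin and 7.22 in the Wi control. It was 0.27 to 2.50 on the other 6 arrays. Such sums are led by the brightest markers, such as Dppa5a at 6.86 in the Wi control. Eye tissue also held lens (6 of 6 markers well above background) and pigment cell genes (5 of 5), while 0 of 4 hypothalamic markers were well above background there. The 7 arrays other than the Wi control shared a slide, RAX-positive arrays were in 1 column of it and RAX-negative arrays in another, so the gate and the column cannot be told apart.

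The 10 genes varied widely. Of these, 9 were well above background on at least 4 arrays, and the median range of those 9 over the 8 arrays was 5.91 log2, beside 1.72 for the 25716 genes that met the same criterion. Sfrp1 had the narrowest range among the 9, at 2.24 log2, and Dkk3 the widest of those measured on all 8 arrays, at 8.69. The range of Wif1 was at least 7.85, since 3 arrays were near background. The scanner software gave errors of 0.14 to 0.16 log2 for bright probes, and larger ones near background.

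**Figure D1:**
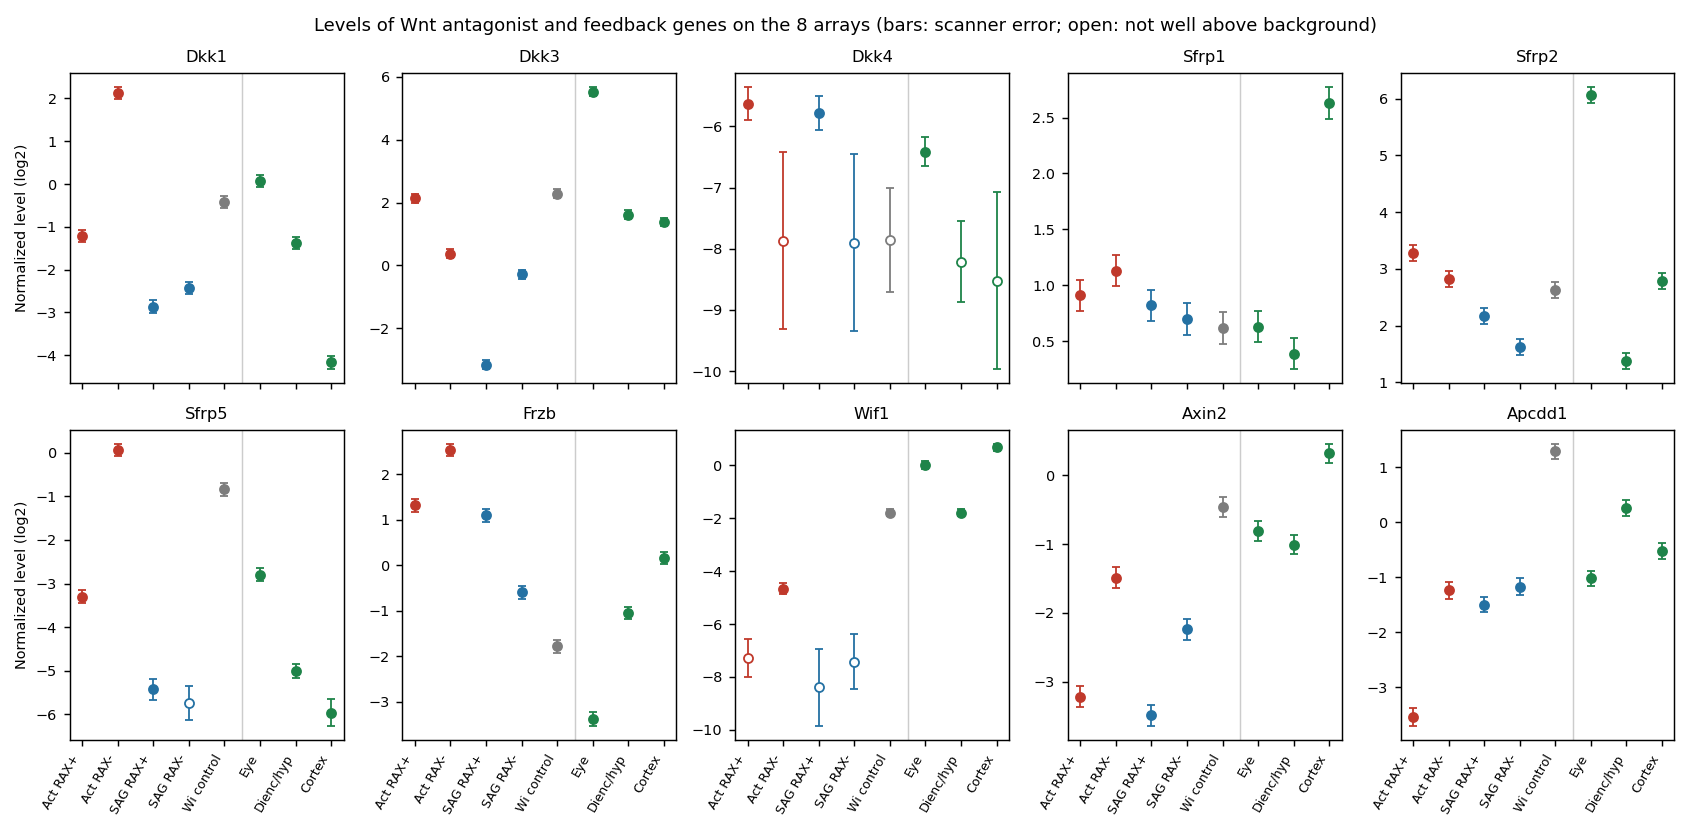
Normalized log2 level of each gene (vertical axes, own scale for each panel) on the 8 arrays (horizontal axis), with scanner error as bars, cultures left and tissues right of the vertical line. Red points are activin, blue SAG, grey the Wi control and green tissues. Open points were not well above background: Wif1 in 3 sorted populations, Dkk4 on 5 arrays and Sfrp5 on 1.

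Dkk1, whose product blocks Lrp5 and Lrp6, was highest in RAX-negative cells after activin. Its level (probe at chr19:30621424-30621483, minus strand, mm9) was 2.12 in RAX-negative and -1.22 in RAX-positive cells after activin, then -2.43 and -2.87 after SAG, -0.41 in the Wi control, 0.07 in eye, -1.38 in diencephalon/hypothalamus and -4.17 in cortex. The range was 6.29 log2, or 78.5-fold, with cortex at the low end. RAX-positive cells after activin and diencephalon/hypothalamus lay within the combined scanner error of each other. All other neighbours in this order were further apart than that error.

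Dkk3, a divergent Dickkopf gene with no settled place in the pathway, had a different order. Its level (chr7:119259556-119259615, minus strand, mm9) was 0.37 in RAX-negative and 2.13 in RAX-positive cells after activin, then -0.29 and -3.16 after SAG, 2.28 in the Wi control, 5.53 in eye, 1.61 in diencephalon/hypothalamus and 1.38 in cortex. Eye was the highest array, and RAX-positive cells after SAG were the lowest, so that the range reached 8.69 log2, or 412-fold. Dkk4, another ligand of the co-receptors (chr8:23737949-23738008, plus strand, mm9), was well above background on 3 of 8 arrays. Its levels there were -5.63 in RAX-positive cells after activin, -5.78 in RAX-positive cells after SAG and -6.41 in eye. The other 5 arrays were not well above background, at -8.52 to -7.86, with scanner errors of up to 1.45.

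Among the Frizzled-related genes, Sfrp1 was even across the cultures and high in cortex. Its level (chr8:24559438-24559497, plus strand, mm9) was 1.13 in RAX-negative and 0.91 in RAX-positive cells after activin, then 0.70 and 0.82 after SAG, 0.62 in the Wi control, 0.63 in eye, 0.39 in diencephalon/hypothalamus and 2.63 in cortex. Cortex was 4.71-fold above diencephalon/hypothalamus, and the 5 cultures lay within 0.51 log2. Sfrp2 (chr3:83577864-83577923, plus strand, mm9) was 2.82 in RAX-negative and 3.28 in RAX-positive cells after activin, then 1.62 and 2.17 after SAG, 2.62 in the Wi control, 6.06 in eye, 1.37 in diencephalon/hypothalamus and 2.78 in cortex. Eye was the highest of the 8 arrays for Sfrp2, as for Dkk3.

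Sfrp5 followed the order of Dkk1 more than that of its relatives. Its level (chr19:42272509-42272568, minus strand, mm9) was 0.07 in RAX-negative and -3.30 in RAX-positive cells after activin, then -5.74 and -5.43 after SAG, -0.84 in the Wi control, -2.80 in eye, -5.01 in diencephalon/hypothalamus and -5.96 in cortex. RAX-negative cells after SAG were not well above background. The highest 2 arrays, RAX-negative cells after activin and the Wi control, were also the 2 with high summed pluripotency markers, whose part in the levels of Sfrp5 and Dkk1 was not tested. Over the 8 arrays, Dkk1 and Sfrp5 had a Pearson correlation of 0.90 and a Spearman correlation of 0.95, given as a description of arrays that share lines and tissues.

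Frzb, a secreted Frizzled-related protein, was high in most sorted cells and lowest in eye. Its level (chr2:80252582-80252641, minus strand, mm9) was 2.53 in RAX-negative and 1.32 in RAX-positive cells after activin, then -0.59 and 1.10 after SAG, -1.78 in the Wi control, -3.37 in eye, -1.05 in diencephalon/hypothalamus and 0.16 in cortex. RAX-negative cells after activin were highest and eye lowest, 60.1-fold apart. All 4 sorted populations were above the Wi control, by 2.29-fold to 19.9-fold, and 3 of the 4 were above every tissue.

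Wif1, Axin2 and Apcdd1 shared a low level in the sorted cells. Wif1 (chr10:120537079-120537138, plus strand, mm9), which sequesters Wnt ligands, was -4.66 in RAX-negative and -7.28 in RAX-positive cells after activin, then -7.43 and -8.39 after SAG, -1.79 in the Wi control, 0.02 in eye, -1.79 in diencephalon/hypothalamus and 0.68 in cortex. The last 3 sorted populations named were not well above background. The Wi control and diencephalon/hypothalamus were at the same level, and all 4 sorted populations lay below both.

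Axin2 was read from the brighter of its 2 probes (chr11:108812034-108812093, plus strand, mm9). The level was -1.49 in RAX-negative and -3.22 in RAX-positive cells after activin, then -2.24 and -3.49 after SAG, -0.46 in the Wi control, -0.81 in eye, -1.01 in diencephalon/hypothalamus and 0.32 in cortex. Both RAX-positive populations were lowest, and the Wi control fell among the tissues. The dimmer probe (chr11:108803927-108803986) gave -5.27 and -4.95 after activin, -4.31 and -4.99 after SAG, for RAX-negative and RAX-positive cells in turn. On it the Wi control was at -4.63, eye at -4.26, diencephalon/hypothalamus at -3.90 and cortex at -4.46. The 2 probes disagreed: they correlated at r = 0.46 (rho 0.43) over the 8 arrays, and the dimmer one ranged over 1.37 log2 against 3.81 for the brighter.

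Apcdd1 (chr18:63112729-63112788, plus strand, mm9) was -1.24 in RAX-negative and -3.54 in RAX-positive cells after activin, then -1.17 and -1.50 after SAG, 1.29 in the Wi control, -1.02 in eye, 0.26 in diencephalon/hypothalamus and -0.52 in cortex. RAX-positive cells after activin stood 2.04 log2 below the next array, and the Wi control was the highest. Eye, RAX-negative cells after SAG and RAX-negative cells after activin formed a run in which neighbours differed by no more than the scanner error. Wif1 and Axin2, on its brighter probe, had a Pearson correlation of 0.94 (Spearman 0.90) over the 8 arrays. For Axin2 on that probe and Apcdd1 it was 0.71 (0.83). The Wif1 levels near background entered as measured.

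**Figure D2:**
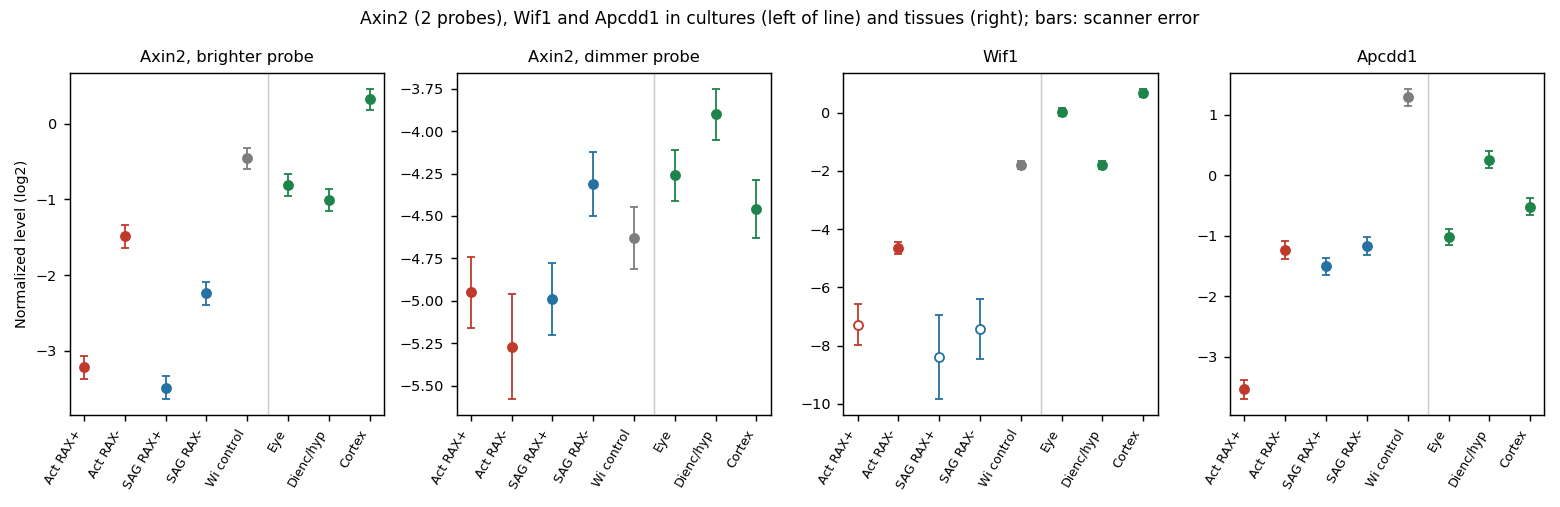
Normalized log2 level (vertical axes, own scale for each panel) of Axin2 by its brighter and dimmer probe, of Wif1 and of Apcdd1 on the 8 arrays, with scanner error as bars. On the brighter Axin2 probe and for Wif1 all 4 sorted populations sit below all 3 tissues. On the dimmer Axin2 probe RAX-negative cells after SAG, at -4.31, sit above cortex, at -4.46.

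The 4 sorted populations did not overlap the 3 tissues for 3 of the 10 genes, a comparison chosen after the values were seen. Wif1, Axin2 and Apcdd1 were lower in every sorted population than in every tissue, and 0 members were higher in every one. Over the 27034 genes tested, 6.18% lay below all tissues in this way and 12.9% above. The closest pair was 2.88 log2 apart for Wif1 and 0.48 for Axin2, with scanner errors of 0.26 and 0.20, but for Apcdd1 it was 0.15, within its scanner error of 0.20. Apcdd1 overlapped under median scaling and with normexp background correction, and Axin2 overlapped on its dimmer probe. The Wi control, with the same inhibitor, was above all 4 sorted populations for Wif1, Apcdd1 and, on its brighter probe, Axin2. Relative to it, Apcdd1 was lower by 5.53-fold to 28.6-fold, and Axin2 by 2.05-fold to 8.20-fold on the brighter probe. On the dimmer Axin2 probe 3 sorted populations were lower than the Wi control by 1.25-fold to 1.56-fold, and RAX-negative cells after SAG were 1.25-fold higher. Wif1 was 7.31-fold lower in RAX-negative cells after activin, and at least 20.4-fold, 14.2-fold and 41.8-fold lower in the RAX-positive activin, RAX-negative SAG and RAX-positive SAG populations. The Wi control differs from the sorted cells in line, sort, added factor and slide, which cannot be told apart. At least 4 of 5 cortical hem and choroid plexus markers were well above background on every array. The log2 of the summed levels of the 5 was 4.47 in the Wi control, 4.19 in cortex, 2.04 in eye and 3.60 in diencephalon/hypothalamus. In sorted cells it was between -2.71 and 2.31. For 5 endothelial markers the log2 sum was 3.26 in the Wi control, 2.74 to 3.47 in tissues and 1.46 to 2.12 in sorted cells. The sum in the Wi control came mostly from Kdr, at 3.21. The median level of the 5 was -3.52 in the Wi control, 0.14 to 0.61 in tissues and -4.94 to -1.94 in sorted cells. The log2 sums of 8 mesenchyme and neural crest markers were 5.72 to 7.14 in tissues, 1.23 to 3.97 in sorted cells and 2.42 in the Wi control. By limma, 2 of 5 endothelial (Tek and Cldn5) and 2 of 8 mesenchyme markers (Pdgfra and Lum) were lower in the 5 cultures than in tissues, and 0 of the 4 hem and choroid plexus markers tested. The part of these cells in the differences was not tested, and fewer cells of a type and less RNA per cell cannot be told apart in such bulk samples.

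For each pair of arrays, a gene was called where its log2 difference was at least 1 and the array with the higher level was well above background. Where the other array was not, its level was set to the lowest level measured well above background there if that was higher, and the fold is written as at least. These calls are a rule of size with no test. Median scaling moved the median difference of all genes the most, to -0.41 log2 for eye against cortex, 0.43 for cortex against diencephalon/hypothalamus and 0.38 for activin against SAG in RAX-negative cells. Comparisons that share an array are not independent of each other.

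The activin gate gave the most calls among the 4 comparisons of sorted cells, and most were lower in RAX-positive cells. Of 10 members measured, 6 were lower and 1 was higher, beside 6.19% lower and 10.3% higher over all genes measured. The members' median difference was -1.46 log2 and that of all genes 0.19. Dkk1 was 10.1-fold and Sfrp5 10.4-fold lower in RAX-positive than in RAX-negative cells, Apcdd1 4.95-fold, Axin2 3.30-fold, Frzb 2.32-fold and Wif1 at least 2.79-fold. Dkk3 was 3.39-fold higher in that population. Sfrp1 and Sfrp2 differed by -0.22 and 0.46 log2. The Axin2 difference was 0.32 log2 on its dimmer probe, opposite to the brighter one, and Wif1 was at -0.75 with normexp correction. The RAX-negative cells also held more transcript of pluripotency (6 of 7 lower in RAX-positive cells), mesoderm and endoderm (5 of 5) and mesenchyme markers (6 of 8), whose part in the members' differences was not tested. Over all genes, 62.5% of calls were higher in RAX-positive cells, against 34.8% to 44.0% under the 4 other scalings.

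After SAG the gate gave fewer calls. Of 9 members measured, 1 was higher and 2 were lower in RAX-positive cells, beside 4.45% higher and 10.3% lower over all genes. The median difference was 0.12 log2 for the members and 0.08 for all genes. Dkk3 was 7.30-fold lower and Frzb 3.23-fold higher, each opposite to its direction after activin. Axin2 was 2.38-fold lower, on the same side as after activin, at -1.25 log2 on the brighter probe, -0.68 on the dimmer and -0.87 with normexp correction. Dkk1 and Apcdd1, which were low in RAX-positive cells after activin, differed by -0.44 and -0.33 log2. Sfrp5 was near background in RAX-negative cells and at least 1.14-fold higher in RAX-positive cells, short of a call. Lower in RAX-positive cells were 7 of 8 mesenchyme, 5 of 7 pluripotency and 4 of 7 neuron markers, and their part was not tested. Of all calls, 30.1% were higher, against 26.2% to 43.6% under the other scalings.

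Between the added factors, Dkk1, Sfrp2 and Sfrp5 were higher after activin in both gates. In RAX-positive cells, 4 of 9 members were higher after activin and 1 lower, beside 17.6% and 6.75% over all genes, with a median of 0.28 log2 against 0.24. Of the markers in this pair, those of neurons were lower after activin for 6 of 7 genes, those of mesenchyme higher for 5 of 7 and those of pigment epithelium higher for 4 of 5. Dkk3 was 39.2-fold higher, Sfrp5 4.36-fold, Dkk1 3.15-fold and Sfrp2 2.15-fold, and Apcdd1 was 4.11-fold lower. Sfrp2 was at 0.96 and 0.94 log2 under median and quantile scaling and Sfrp5 at 0.61 with normexp correction, each short of a call. In RAX-negative cells, 4 of 9 were higher after activin and 0 lower, beside 12.8% and 15% over all genes, with a median of 1.20 log2 against 0.04. Sfrp5 was at least 51.5-fold higher, Dkk1 23.5-fold, Frzb 8.70-fold and Sfrp2 2.30-fold. In that pair the pluripotency markers were higher after activin for 6 of 7 genes and mesoderm and endoderm markers for 4 of 5, while 6 of 7 neuron and 4 of 4 hypothalamic markers were lower. The part of these markers in both pairs was not tested. Of all calls, 72.3% were higher after activin in RAX-positive cells (43.7% to 62.5% under the other scalings) and 45.9% in RAX-negative cells (39.2% to 68.7%). Axin2 differed between the factors by less than a call in both gates, at 0.28 and 0.75 log2 on the brighter probe. The latter was 1.08 under median scaling but -0.96, the opposite direction, on the dimmer probe.

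**Figure D3:**
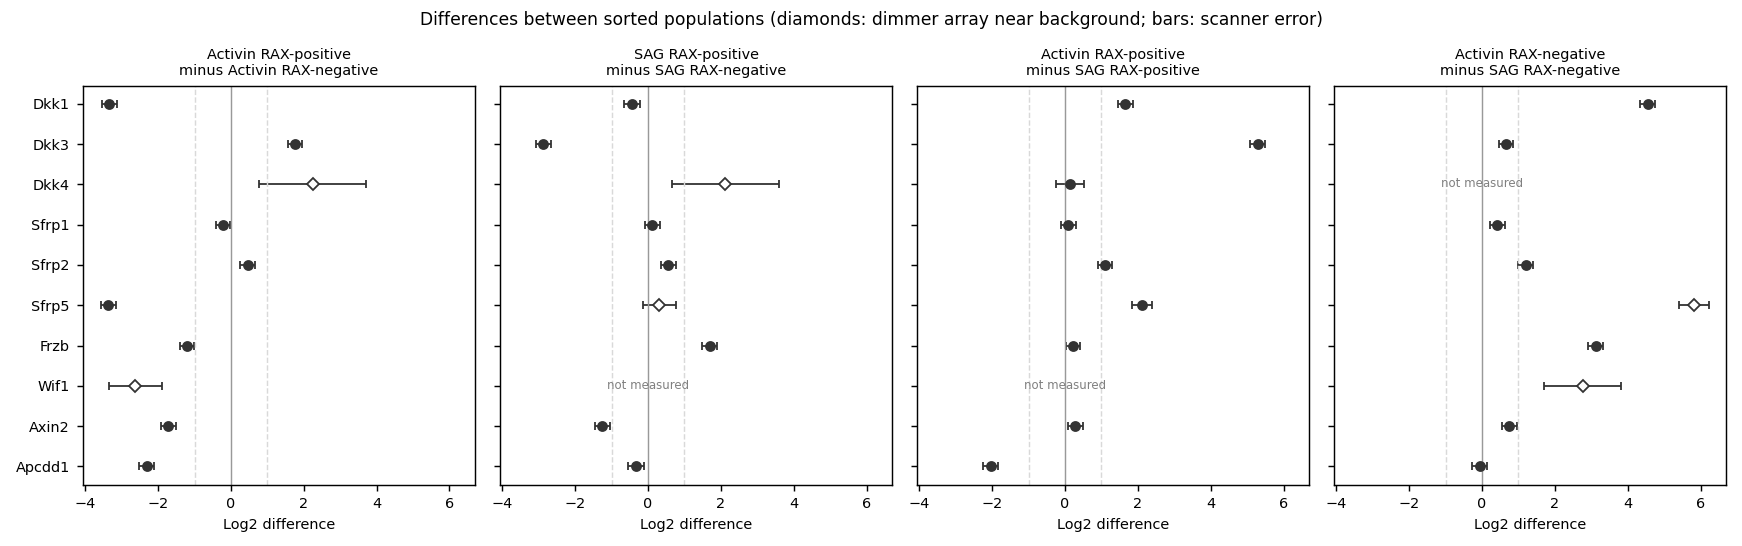
Log2 difference of each gene (horizontal axes) in the 4 comparisons of sorted populations, with scanner error as bars and dashed lines at a difference of 1. Diamonds show the measured difference where the array with the lower level was not well above background. A gene near background on both arrays is marked as not measured. Dkk1 and Sfrp5 lie far to the left in the activin gate and to the right for activin against SAG, and Dkk3 and Frzb change sides between the 2 gates.

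Each of the 10 members was called in at least 1 of the 3 comparisons of tissues, beside 33.6% of all genes measured. Without the Dkk4 call in eye, which other scalings did not keep, 9 of them were called. The Axin2 calls behind this count changed sign on its dimmer probe. In eye against cortex, 4 of 10 members were higher in eye and 3 lower, beside 13.1% and 7.26% over all genes. The members' median was 0.80 log2 and that of all genes 0.11. Dkk1 was 19.0-fold, Dkk3 17.7-fold, Sfrp2 9.66-fold and Sfrp5 8.93-fold higher, and Frzb 11.6-fold, Sfrp1 3.99-fold and Axin2 2.20-fold lower. Axin2 was at 0.20 log2 on its dimmer probe, the opposite side, and Wif1 and Apcdd1 reached -1.17 and -1.01 log2 under median scaling. Of all calls 64.3% were higher in eye, against 26.0% to 60.9% under the other scalings.

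In eye against diencephalon/hypothalamus, 6 of 10 members were higher and 2 lower, beside 11.4% and 8.07% over all genes, and the median was 1.62 log2 against 0.19. Sfrp2 was 25.8-fold, Dkk3 15.1-fold, Sfrp5 4.61-fold, Wif1 3.50-fold and Dkk1 2.74-fold higher, and Dkk4 at least 2.06-fold. Frzb was 5.02-fold and Apcdd1 2.43-fold lower. The Dkk4 call was lost under each of the 4 other scalings. Axin2 was at 0.20 log2 on its brighter probe and -0.36 on the dimmer, neither a call. Lens and pigment markers were higher in eye for all 6 and 5 genes in both comparisons. Mesenchyme markers were higher for 6 of 8 against cortex and 5 of 8 against diencephalon/hypothalamus. Neuron markers were lower in eye for 5 of 7 and 7 of 7 genes in turn. Neural progenitor markers were lower for 5 of 7 in both, with 1 higher against diencephalon/hypothalamus. The part of these markers in the members' values was not tested.

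Cortex had more Sfrp1, Sfrp2, Frzb, Wif1 and Axin2 than diencephalon/hypothalamus. Here 5 of 9 members were higher in cortex and 1 lower, beside 8.43% and 10.8% over all genes, and the median was 1.21 log2 against 0.04. Wif1 was 5.51-fold, Sfrp1 4.71-fold, Sfrp2 2.67-fold, Axin2 2.52-fold and Frzb 2.31-fold higher, and Dkk1 was 6.93-fold lower. Axin2 was at -0.57 log2 on its dimmer probe, the opposite side. Of all calls, 43.9% were higher in cortex, against 45.2% to 73.4% under the other scalings. Cortical hem and choroid plexus markers were higher in cortex for 3 of 5 genes and lower for 1. Neuron markers were lower there for 5 of 7 genes and mesenchyme markers for 3 of 8. The part of these markers was not tested.

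**Figure D4:**
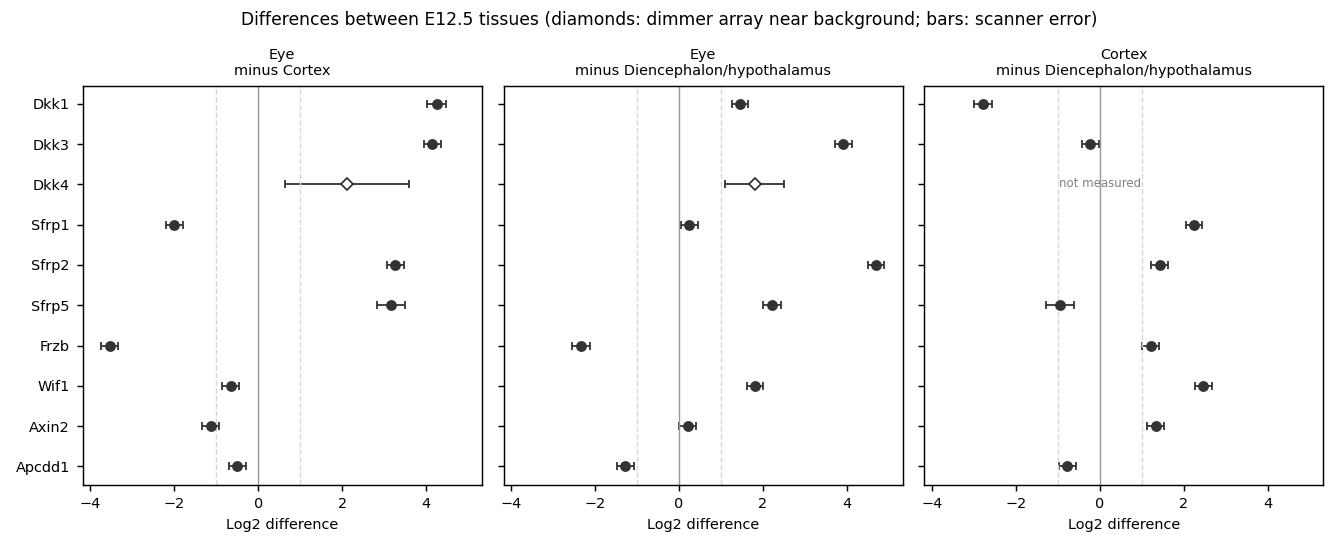
Log2 difference of each gene (horizontal axes) in the 3 comparisons of E12.5 tissues, with scanner error as bars and dashed lines at a difference of 1. Diamonds show the measured difference where the array with the lower level was not well above background. Dkk3 and Sfrp2 lie to the right and Frzb to the left in both comparisons of eye.

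Set beside eye or diencephalon/hypothalamus, the sorted RAX-positive cells had less of the feedback genes and more Frzb. RAX-positive cells after activin, beside eye, had 5.29-fold less Axin2, 5.74-fold less Apcdd1, at least 71.7-fold less Wif1, 10.5-fold less Dkk3 and 6.86-fold less Sfrp2, and 25.9-fold more Frzb. RAX-positive cells after SAG, beside diencephalon/hypothalamus, had 5.58-fold less Axin2, 3.39-fold less Apcdd1, at least 42.0-fold less Wif1 and 27.4-fold less Dkk3, and 4.44-fold more Frzb. Dkk1 was 2.45-fold and 2.82-fold lower in the same pairs. Dkk4 was at least 3.19-fold higher after SAG than in diencephalon/hypothalamus. Sfrp1 differed by 0.28 and 0.43 log2 in these pairs. The share of all genes that differed as much was not counted for them. The Axin2 folds are those of its brighter probe. On the dimmer probe the levels lay closer, at -4.95 after activin beside -4.26 in eye, and -4.99 after SAG beside -3.90 in diencephalon/hypothalamus. Culture, strain and the mix of cells in whole tissue also differ within these pairs and cannot be told apart.

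Over all arrays, the 5 cultures were compared with the 3 tissues by limma's moderated test with Benjamini-Hochberg adjustment over 27034 genes. The arrays of a side are different conditions, so their differences count as error, and the inhibitor cannot be told apart from culture, line and strain. RAX-positive and RAX-negative cells of a treatment were fitted as independent arrays, and the p-values do not account for the treatment and line that they share. Of all genes, 1.49% were higher and 1.42% lower in cultures at an adjusted p under 0.05, which is 402 and 383 genes. With other scalings these were 303 and 467 (median), 613 and 321 (normexp), and 320 and 476 (deposited values). Of the 10 members 0 were called by limma, and 2 had an unadjusted p under 0.05, beside 16.9% of all genes.

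Wif1 had the largest difference, with means of -5.91 in cultures and -0.36 in tissues, a difference of -5.55 (SE 1.44) and a limma adjusted p of 0.0893. Without the Wi control it was -6.58 with an adjusted p of 0.0159 from limma, and with normexp correction it was -2.84 with 0.0456. Over all alternatives its limma adjusted p was 0.0159 to 0.298. Among sorted populations Wif1 was well above background only in RAX-negative cells after activin. The fit took the other levels as measured, with no bound, so the size of its difference is uncertain. Axin2 came next in p, at -1.68 (SE 0.71, limma adjusted p = 0.278) on the brighter probe and -0.62 on the dimmer, and without the Wi control at -2.11 with an adjusted p of 0.104. Dkk3 was at -2.58 (SE 1.40, adjusted p = 0.393 in limma) and Frzb at 1.94 (SE 1.08, adjusted p = 0.405 in limma). Without eye these were -1.23 for Dkk3 and 0.96 for Frzb. The remaining 6 genes were between -0.90 and 1.54 with adjusted p of 0.648 to 0.787. Of these, Dkk1 and Sfrp1 change sign without cortex, Sfrp2 without eye, and Dkk4 in the deposited values.

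**Figure D5:**
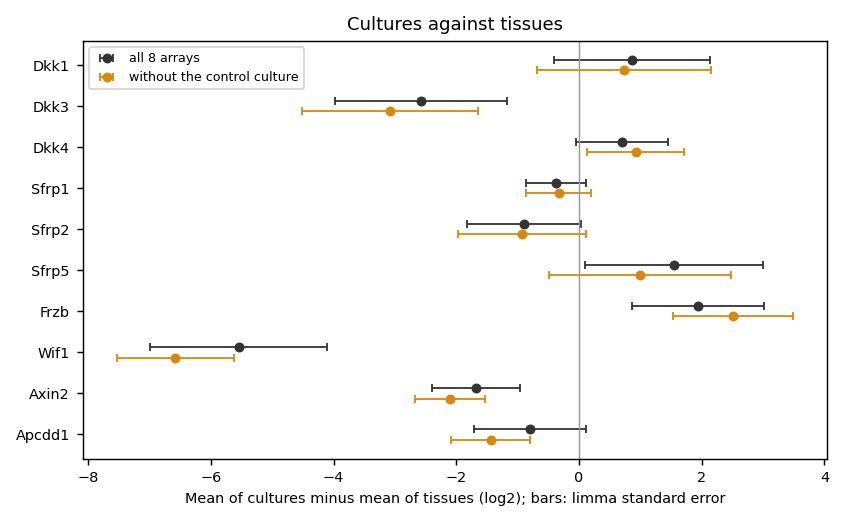
Mean log2 level of cultures minus that of tissues for each gene (horizontal axis), with limma standard errors as bars, over all 8 arrays (dark) and without the Wi control (orange). Wif1, Axin2 and Apcdd1 lie further to the left without the Wi control, at -6.58, -2.11 and -1.44.

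Other genes of the pathway were counted in lists of 12 other antagonists, 13 other feedback and target genes, 17 core components, 19 Wnt ligands and 10 Frizzled receptors. By limma, cultures and tissues differed in 1 of 11 other antagonists tested, with Dkk2 lower in cultures by 6.06 log2 (SE 1.26, adjusted p = 0.0435), and in 2 of 17 ligands, Wnt6 (-5.82, adjusted p = 0.0397) and Wnt10a (-6.54, adjusted p = 0.0124), both lower. Dkk2 was not well above background in either RAX-positive population. Nor was Wnt6 there and in RAX-negative cells after SAG, or Wnt10a there and in RAX-negative cells after activin. The fit took such levels as measured, so the sizes of these differences are uncertain. Among other targets 0 of 11 were called, among core components 0 of 17 and among receptors 0 of 10. Their median differences were 0.29 for the other antagonists, -0.39 for the targets, 0.33 for the core, -0.99 for the ligands and 0.23 for the receptors, beside 0.17 for all genes.

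In the activin gate, the ligands were lower in RAX-positive cells for 8 of 15 genes measured and higher for 3, and in the SAG gate lower for 8 of 14 and higher for 1. The core was called in 1 of 17 genes (lower) after activin, and in 5 higher and 1 lower after SAG. Other antagonists were higher for 2 and lower for 3 of 11 after activin, and lower for 2 of 10 after SAG. Other targets were higher for 1 and lower for 4 of 12 after activin, and lower for 1 of 11 after SAG. Dkk2, which binds the co-receptors, was at least 9.36-fold lower in RAX-positive cells after activin and at least 3.99-fold after SAG. Sostdc1, an antagonist of Wnt and BMP ligands, was 4.33-fold higher in RAX-positive cells after activin. Cer1, a secreted Nodal, BMP and Wnt antagonist, was at least 176-fold higher in RAX-negative cells after activin than after SAG, and at least 20.0-fold higher in RAX-positive cells. Tnfrsf19, a receptor gene and target, was 3.03-fold lower after activin than after SAG in RAX-positive cells, and Ccnd1, the cyclin D1 gene, 2.09-fold lower in RAX-negative cells. Ccnd1 was also the other target with the largest excess in RAX-positive cells after SAG, at 1.72-fold, short of a call.

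In the tissues, the stem cell receptor and target Lgr5 was at least 180-fold higher in eye than in cortex. Sp5, a direct target of beta-catenin, was 27.0-fold lower in eye than in cortex and 21.1-fold lower than in diencephalon/hypothalamus, while Dkk2 was 8.57-fold higher in eye than in diencephalon/hypothalamus. Tnfrsf19 was 4.21-fold higher, and Lgr5 at least 35.8-fold lower, in cortex than in diencephalon/hypothalamus. Ligands were higher in eye than in cortex for 10 of 19 genes and lower for 5, and higher in eye than in diencephalon/hypothalamus for 6 of 17 and lower for 3. In cortex against diencephalon/hypothalamus 3 of 18 were higher and 8 lower. The shares over all genes are those given above for the same comparisons.

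Among the 25716 genes that were well above background on 4 or more arrays, those with the most similar profile over the 8 arrays were found by Pearson correlation. For Wif1 they were Rasip1 (0.991) and Wfikkn2 (0.984), for Axin2 Pappa (0.984) and Ppapdc1a (0.953), and for Sfrp5 Rbpms (0.979) and Tmem102 (0.975). For Dkk1 they were Ppp1r14d (0.973) and Epb4.1l4b (0.971), for Dkk3 Nfatc1 (0.954) and Fam105a (0.953), and for Sfrp2 Galm (0.966) and Mitf (0.958). Frzb was most similar to Ireb2 and Snx27 (both 0.972), Apcdd1 to Ddx4 (0.95) and Trim62 (0.94), and Sfrp1 to a pair of transcripts with no gene symbol (0.963 and 0.955). With 8 arrays and this many genes, values of this size describe the arrays only.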

How the data were processed

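Per the labels, Cy3-labelled cRNA from 50 ng of total RNA went on Agilent mouse arrays. Per the file headers, Feature Extraction 10.7.3.1 made the deposited intensity of each spot, background-subtracted within its array, while the submitters' processing notes name version 9.1 and limma. The authors also deposited a log2 table. Its column medians of 6.36 to 6.40 and correlations of 0.977 to 0.991 with the log2 scanner signal place it on an uncentred log2 scale, with an offset not given in the sources used here. Probe positions are those of the files (mm9).

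The 10 genes and all lists were chosen with earlier results of these data known. Processed intensities were divided by the 75th percentile of the array, put on a log2 scale and averaged over spots of a probe, without outlier and control spots (262 probes had outlier spots alone). A gene was named as in the files of the first slide and taken from whichever probe had the highest mean level. The file of the Wi control carries an older annotation. Pairs of arrays were read by a rule of size, since each group had 1 array. Cultures and tissues were compared with limma 3.58.1 in R 4.3.3 over genes that 3 or more arrays measured well above background. P-values measure the spread between these arrays, which are different conditions, and the number of arrays limits precision. The fitting script was tested on simulated data.

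Named were all 10 genes, the 2 most similar genes of each member well above background on at least 4 arrays, and, from the other antagonists and targets, those with the largest difference in each direction. Genes called in the fit from the 5 pathway lists are named too, chosen after their values were seen. Alternatives were median and quantile scaling, normexp (offset 50), the deposited values, the dimmer probe, a log2 difference of 1.5, no filter on dim genes, and leaving out each array. Added after seeing the data were differences without a bound and the count of sorted arrays against tissues.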

Additional observations from a re-analysis of the deposited data

Results flagged for a closer look

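Dkk3 and Frzb had opposite gate differences under the 2 added factors. RAX-positive minus RAX-negative cells gave 1.76 log2 after activin and -2.87 after SAG for Dkk3, and -1.21 and 1.69 for Frzb. Each condition had 1 array, and the difference between the factors was not tested. Among the 5 culture arrays, 0 of the 10 genes had an array that stood apart from the others by Dixon's criterion, which chance meets in about 1 group in 20. That criterion takes the arrays as independent, though they include both sorted fractions of each treatment.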

How the results depend on the processing

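Of 137 alternative values of the 10 genes in the comparison of cultures with tissues, 131 kept their direction and side of the threshold. Of 462 for pairs of arrays, 427 kept their call or stayed short of one. A value short of a call was counted as kept even where its direction changed. Part of both counts was fixed in advance. Axin2 alone had a second probe, so the other genes kept their main values under that alternative. Dropping the filter on dim genes could not change a direction, and the stricter size rule could not add a call. The number of members called in cultures against tissues was 1 with normexp and 0 to 1 over fits without 1 array, in each case Wif1. Genes higher in cultures numbered 613 with normexp and 113 to 396 without 1 array, fewest without diencephalon/hypothalamus, and genes lower numbered 95 to 404, fewest without eye. Such fits have fewer arrays. Leaving out 1 array took the difference of cultures from tissues from -0.31 to 1.81 log2 for Dkk1 (negative without cortex), from -0.80 to 0.32 for Sfrp1 (positive without cortex) and from -1.92 to 0.42 for Sfrp2 (positive without eye). For Dkk4 it was -0.07 in the deposited values. On its dimmer probe Axin2 had the opposite sign in 5 of 7 pairs: 0.32 in the activin gate, 0.20 in eye against cortex and -0.57 in cortex against diencephalon/hypothalamus, all called on the brighter probe, and -0.96 for activin against SAG in RAX-negative cells and -0.36 in eye against diencephalon/hypothalamus, not called. The cause was not tested. At a log2 difference of 1.5, 5 members were called between eye and diencephalon/hypothalamus (8 at 1) and 3 between cortex and diencephalon/hypothalamus (6 at 1). With no bound for arrays near background, Dkk4 was called in both gates, at 2.24 and 2.12 log2. No paired analysis was possible because each group had 1 array, so no 2 groups share more than 1 replicate number. Signal over background limits Dkk4 on 5 arrays and Wif1 on 3.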
